A study of Mus musculus with 10 samples.

Results

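The genes described here are 10 genes of antigen presentation to T cells: *Cd74*, *H2-Aa*, *H2-Ab1*, *H2-Eb1*, *H2-DMa*, *Ciita*, *Cd80*, *Cd86*, *Cd209a* and *H2-M2*. They are 10 of the 19937 genes that the arrays measured under 1 gene symbol, and they were chosen because, as a list, they were higher in *Slpi*-/- basophils than in wild-type basophils. That choice used the genotype difference in basophils, which is therefore described below with no test. Not every member is a class II or costimulation gene. *H2-M2* is a non-classical class I gene of the MHC, and *Cd209a* is a lectin gene that stayed at background in basophils.

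RNA was hybridised to 10 Affymetrix GeneChip mouse arrays, 1 for each condition. The conditions were *Slpi*-/- and B6 bone marrow-derived basophils (BMBs), the same with IgE, *Slpi*-/- and B6 mast cells, *Slpi*-/- and B6 bone marrow-derived eosinophils (BMEos), and the same with LPS. BMBs with IgE had been held with anti-TNP IgE for 1 h and then with TNP-ovalbumin, the antigen, for 12 h. BMEos with LPS had been given lipopolysaccharide for 3 h. All mice were of the C57BL6/N strain, B6 means wild type, and *Slpi*-/- mice lack secretory leukoprotease inhibitor in the whole body. BMBs and mast cells were grown from marrow in IL-3 (BMBs then sorted as c-kit- DX5+ cells), and BMEos in SCF and Flt3 ligand followed by IL-5. All are cultured cells rather than tissue cells, and the sources do not say how many mice or cultures stand behind an array. A difference between arrays holds technical as well as biological spread. In such bulk RNA, fewer cells that express a gene and less RNA per cell cannot be told apart.

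MHC class II molecules are pairs of an α and a β chain that carry peptides from endocytosed protein to the surface, where CD4+ T cells read them. The invariant chain, CD74, fills the groove of new class II molecules and leads them to endosomes, and the DM molecule then exchanges the remaining CD74 fragment for peptide. CIITA is the transactivator that turns on class II, *Cd74* and DM genes together, through factors bound to the X and Y boxes of their promoters. CD80 and CD86 on the presenting cell bind CD28 and CTLA-4 on the T cell. Dendritic cells, B cells and macrophages are the main cells that use this pathway, and basophils have been discussed as a further one. C57BL/6 mice carry a non-functional I-E α gene, so the β chain that *H2-Eb1* encodes lacks its usual partner.

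Since class II genes are known for the boxes their promoters share, the promoters of *H2-Aa* and *H2-Eb1* are shown beside that of *H2-M2*, the class I-like gene. RefSeq (GRCm38.p6) gave a promoter window, 250 bases before to 50 bases after the start, for 6 of the 10 genes (*H2-Aa*, *H2-Eb1*, *H2-DMa*, *Cd80*, *Cd209a* and *H2-M2*). *Cd74*, *H2-Ab1*, *Ciita* and *Cd86* were not matched. Each stretch runs 5′ to 3′ over bases 120 to 21 before the start, at chr17:34287844-34287943 (minus strand) for *H2-Aa*, chr17:34305747-34305846 (plus strand) for *H2-Eb1* and chr17:37483575-37483674 (minus strand) for *H2-M2*. Capitals mark GCAAC, letters of the X1 box, and GATTGG, those of the Y box, where the second follows the first after 20 to 30 bases.
H2-Aa: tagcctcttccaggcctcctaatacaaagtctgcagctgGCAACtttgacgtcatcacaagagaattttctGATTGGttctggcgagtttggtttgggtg
H2-Eb1: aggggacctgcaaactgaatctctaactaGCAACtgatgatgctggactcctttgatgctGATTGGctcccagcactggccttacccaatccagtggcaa
H2-M2: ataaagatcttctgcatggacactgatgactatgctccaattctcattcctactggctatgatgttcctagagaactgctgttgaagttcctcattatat

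The pair of motifs lay 27 bases apart in *H2-Aa* and 26 bases apart in *H2-Eb1*, and no match to it was found in the window of *H2-M2*, *Cd80*, *Cd209a* or *H2-DMa*. Over both strands, 67 of 32851 RefSeq windows of the same length (0.204%) held the pair, although GCAAC alone was in 35.2% of them and GATTGG alone in 16.1%. Among 5 other class II genes with a window, 3 held the pair (*H2-Oa* and *H2-Ob*, the chains of the DM inhibitor DO, and *H2-Eb2*, a further β chain gene). A match says that the letters are there and not that a factor is bound.

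The deposited values are log2 signals made by RMA (robust multi-array average), on which a difference of 1 is a 2-fold difference. RMA gives no detection call, so the line between signal and background was drawn from olfactory receptor genes, few of which are active outside the nose: the 95th percentile of 1027 of them lay between 5.56 and 5.78 on the 10 arrays. By that measure *H2-Eb1* and *H2-DMa* were above background on 10 of 10 arrays, *H2-Ab1* on 9, *Cd74*, *H2-Aa* and *Cd86* on 8, *Cd80* on 7, *Ciita* and *H2-M2* on 5 and *Cd209a* on 1. With the 99th percentile as the limit, *Ciita* and *Cd209a* were above it on 0 arrays and *H2-M2* on 1, so these 3 genes were measured near the lower end of what the arrays resolve. On the 4 BMB arrays, *Cd80* was above that limit on 0 and *Cd86* on 1, so in BMBs both were mostly near that end too. *Slpi* itself stood at 6.55 on the array of *Slpi*-/- BMBs and at 11.42 on that of B6 BMBs, at 6.35 and 11.33 with IgE, at 6.41 and 8.08 for BMEos, and at 5.93 and 7.96 after LPS. The mast cell arrays, at 6.47 and 6.53, give no check of the genotype. The basophil protease gene *Mcpt8* was between 12.72 and 13.29 on the 4 BMB arrays and at most 5.58 elsewhere.

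**Figure D1:**
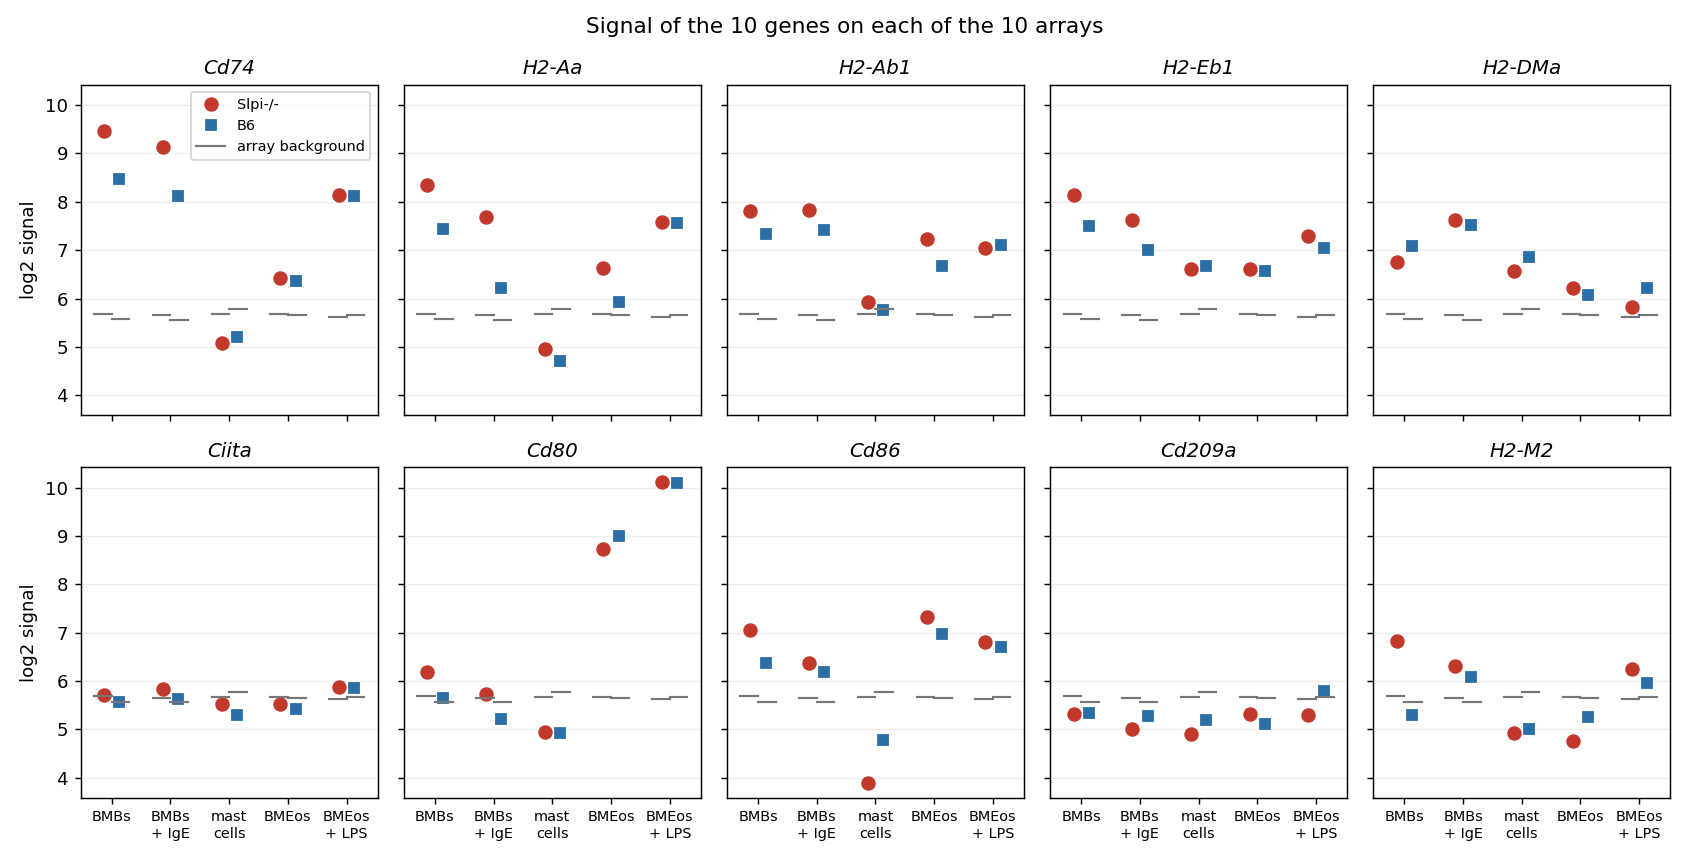
Log2 signal (vertical axis) of each of the 10 genes in the 5 cell and stimulus settings (horizontal axis), with *Slpi*-/- arrays as red circles, B6 arrays as blue squares and the background of each array as a grey line. The red points of *Cd74*, *H2-Aa*, *H2-Ab1*, *H2-Eb1* and *Cd80* stand above the blue ones in both BMB settings, and *Cd80* reaches its highest signals, 10.11 and 10.09, in BMEos with LPS.

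In BMBs, the invariant chain gene and the classical class II chain genes were higher in *Slpi*-/- than in B6 cells in both pairs of arrays. *Cd74* had a signal of 9.47 in *Slpi*-/- BMBs and 8.47 in B6 BMBs, and of 9.13 and 8.12 in the same cells with IgE. The 2 differences were 1.00 and 1.01, or 1.00 ± 0.01 (mean and SD of the 2 pairs), so that both *Slpi*-/- signals were above both B6 signals. *H2-Aa*, the α chain of I-A, had 8.35 in *Slpi*-/- BMBs against 7.44 in B6 BMBs, and 7.69 against 6.23 with IgE. Its differences, 0.91 and 1.47, averaged 1.19 ± 0.39, a mean of 2.28-fold, and again both *Slpi*-/- signals lay above both B6 signals.

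The β chain genes differed by less. *H2-Ab1*, which encodes the partner of the *H2-Aa* chain, had 7.82 in *Slpi*-/- BMBs and 7.33 in B6 BMBs, and 7.83 and 7.42 with IgE, a mean difference of 0.44 ± 0.06. *H2-Eb1* had 8.14 and 7.50, and 7.62 and 6.996 with IgE, a mean difference of 0.63 ± 0.01. For both genes every *Slpi*-/- signal was above every B6 signal. *H2-DMa*, the α chain of the peptide editor DM, did not follow them, with 6.75 in *Slpi*-/- BMBs against 7.08 in B6 BMBs, and 7.63 against 7.52 with IgE. The direction of its difference (-0.32 and 0.11) turned between the pairs.

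*Ciita*, the transactivator, was at the edge of background: its signal was 5.72 in *Slpi*-/- BMBs and 5.57 in B6 BMBs, and 5.83 and 5.63 with IgE, which gives differences of 0.15 and 0.20. The arrays therefore say little of the level of the regulator while its target genes were well measured.

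Of the costimulatory ligands, *Cd80* had 6.18 in *Slpi*-/- BMBs and 5.64 in B6 BMBs, and 5.74 and 5.21 with IgE. Its differences of 0.54 and 0.53 were among the steadiest of the 10 genes (mean 0.53 ± 0.01), at signals that were close to background. *Cd86* had 7.05 against 6.37 without IgE and 6.38 against 6.19 with IgE. The difference was thus 0.68 in the first pair and 0.19 in the second, and the *Slpi*-/- signal with IgE barely exceeded the B6 signal without it.

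*H2-M2* differed most without IgE and little with it. It had 6.83 in *Slpi*-/- BMBs and 5.30 in B6 BMBs, a difference of 1.53 (2.90-fold), against 6.32 and 6.08 with IgE, a difference of 0.24. The B6 signal without IgE was below background. *Cd209a*, a mouse relative of the dendritic cell lectin DC-SIGN, was below background on all 4 BMB arrays (5.31, 5.34, 5.01 and 5.28) and carried no difference. Probe sets of the *H2* and *Cd209* families can take up RNA of near-identical relatives, which the summarized signals cannot resolve.

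Of the 9 genes above background in BMBs, 1 (*H2-M2*) was at least 2-fold higher in *Slpi*-/- BMBs without IgE, against 0.269% of all named genes above background, and 2 (*Cd74* and *H2-Aa*) with IgE, against 0.477%. None was 2-fold lower, against 0.514% of all genes without IgE and 0.214% with it. At least 1.5-fold higher were 5 of them without IgE (1.06% of all genes) and 3 with it (1.55%). *Cd74* and *H2-Aa* were 2-fold higher in the mean of both pairs (0.135% of all genes), although *Cd74*, at the limit, fell under it when each array was centred on its median (0.98). *Cd74* without IgE lay just under the limit, at 1.997-fold. Higher in both pairs by any size were 8 of the 9 genes and 21% of all genes, and 0 of the 9 were 2-fold higher in both pairs (0.00792% of all genes, which is the single gene *Lgalsl*). The median difference over the 9 genes was 0.64 without IgE and 0.40 with it, beside -0.03 and -0.01 over all genes. The 2-fold difference of *H2-M2* is set against a B6 signal below background, so its size is not well measured. Ordered by the difference, *Cd74* ranked 35th, *H2-Aa* 41st and *Cd86* 90th of 12262 genes without IgE, and *H2-Aa* ranked 16th and *Cd74* 58th of 12165 with IgE. As the list was picked on this contrast, these positions describe it and do not test it.

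**Figure D2:**
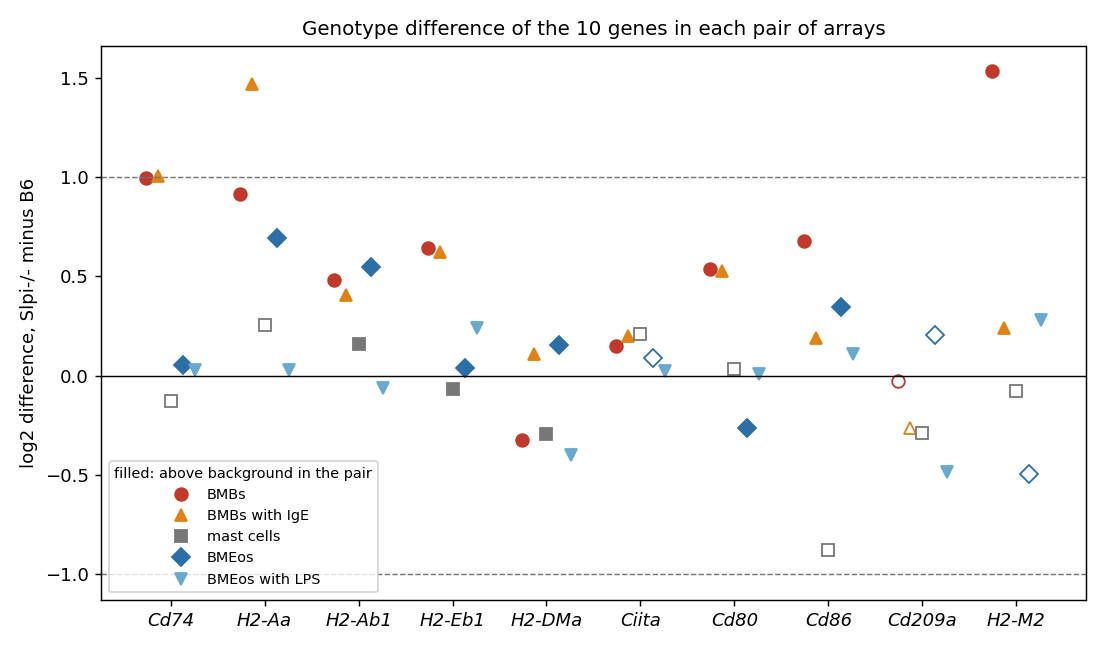
Log2 difference of *Slpi*-/- minus B6 (vertical axis) for each of the 10 genes (horizontal axis) in the 5 pairs of arrays, with filled symbols where the gene was above background on an array of the pair and dashed lines at a 2-fold difference. The BMB symbols (red circles and orange triangles) of *Cd74*, *H2-Aa*, *H2-Eb1* and *Cd80* lie between 0.53 and 1.47. Those of all 10 genes lie between -0.32 and 1.53. In BMEos the differences of the 10 genes lie between -0.49 and 0.70 without LPS, with *H2-Aa* at 0.70 and *H2-Ab1* at 0.55. With LPS they lie between -0.49 and 0.28.

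The rest of the class II machinery held no gene with a 2-fold difference in BMBs. Of 15 further chain, editor, protease and ligase genes above background in BMBs, 0 were 2-fold higher or lower in either pair, 4 were higher and 5 lower in both pairs, and their median difference was -0.04 without IgE and 0.02 with it. Among them, *Ctss*, the cathepsin that trims the invariant chain, had 8.21 in *Slpi*-/- BMBs and 7.77 in B6 BMBs, and 8.04 and 7.36 with IgE. *Marchf1*, a ubiquitin ligase that removes class II and CD86 from the surface, had 5.89 and 5.76, and 6.13 and 5.54 with IgE. *H2-Oa* differed by -0.10 and 0.23, and *H2-Ob* by 0.05 and -0.41. The 19 regulators above background (factors of the X and Y boxes, interferon response factors and cytokine receptors) also had 0 at 2-fold, with medians of -0.00021 and 0.04. *Irf4*, a factor of dendritic cell and lymphocyte maturation, had 5.76 and 5.33, and 6.70 and 6.42 with IgE.

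The wider costimulation list held a few. Of 18 such genes above background, 1 was 2-fold higher without IgE (*Cd83*, a maturation marker that steadies class II and CD86 at the surface, 7.43 in *Slpi*-/- BMBs against 6.11 in B6 BMBs) and 2 with IgE (*Cd24a*, 8.53 against 7.18, and *Slamf1*, 6.46 against 5.36). Their median differences were -0.06 and -0.07. With IgE, *Cd83* had 6.50 and 6.46. Of 11 lectin and scavenger receptor genes, 3 were 2-fold higher with IgE, namely *Cd36* (7.87 against 6.43), *Clec4n* (7.40 against 5.84) and *Mgl2* (6.94 against 5.73), and 2 were 2-fold lower without it, *Clec12a* (5.20 against 6.54, the first below background) and *Clec10a* (4.19 against 5.22, both below background and so not measured apart). No class Ib gene outside *H2-M2* reached 2-fold among the 6 above background, and *Mr1*, which presents vitamin B metabolites, had 7.44 against 7.84, and 7.17 against 7.68 with IgE.

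Markers of other cells that can arise in marrow cultures differed between the same BMB arrays. Of 9 basophil markers above background, 0 were 2-fold higher or lower in either pair, with median differences of 0.01 and -0.08. Their mean signal was 10.95 in *Slpi*-/- BMBs and 10.97 in B6 BMBs, and 10.98 and 10.94 with IgE. Of 14 dendritic cell markers above background, 5 were 2-fold higher in *Slpi*-/- BMBs without IgE. They were the migration receptor *Ccr7* (9.60 against 7.96), the chemokines *Ccl22* (9.23 against 7.58) and *Ccl17* (8.69 against 7.47), *Cd83* and *Fscn1* (8.51 against 7.48), while *Itgax*, at 7.12 against 6.12, lay just under the limit. In the same pair 1 was 2-fold lower, *Clec10a*, with both signals below background. With IgE, 2 were higher, *Itgax* (7.86 against 6.47) and *Mgl2*, while *Ccr7* had 7.94 against 8.19. The summed linear signal of the 17 measured dendritic cell markers was 2983 in *Slpi*-/- BMBs and 1505 in B6 BMBs, and 4046 and 2753 with IgE. Near or below background on the 4 BMB arrays were *Flt3* (at most 5.59), *Zbtb46* (at most 5.74) and *Xcr1* (at most 5.52). *Clec9a*, by contrast, was higher in unstimulated BMBs than in mast cells (1.26, limma adjusted p = 0.00168). So was *Flt3*, by 0.38 (limma adjusted p = 0.024), and of 13 dendritic cell markers tested there 9 were higher and 0 lower.

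The neutrophil and megakaryocyte markers differed too. Of 10 neutrophil markers, 6 were 2-fold lower in *Slpi*-/- BMBs without IgE, with *Mpo* at 5.995 against 8.84, *Ngp* at 5.02 against 6.77 and *S100a8* at 3.84 against 5.78. The *Slpi*-/- signals of *Ngp* and *S100a8* were below background, so the size of these differences is not well measured. With IgE 0 were 2-fold lower and 1 was 2-fold higher (*Mmp8*, 5.80 against 4.65, the second below background). Of 6 megakaryocyte markers, 3 were 2-fold higher with IgE (*Ppbp* 11.45 against 8.81, *Pf4* 10.85 against 8.96 and *Gp9* 8.80 against 6.91) and 0 without it. The summed signals of the neutrophil list were 9711 and 9248 without IgE, and 5085 and 4933 with it, and those of the megakaryocyte list were 5577 and 6248, and 7212 and 3056. Of 10 macrophage and monocyte markers, 0 were 2-fold higher without IgE and 2 with it (*F13a1* 8.03 against 6.32, *Ccr2* 7.95 against 6.90). Of 4 mast cell markers, 1 was 2-fold lower with IgE (*Tpsb2* 10.49 against 11.51), with summed signals over the list of 1764 and 3341 with IgE, and of 2207 and 2516 without. Of 2 eosinophil markers, 1 was 2-fold higher with IgE (*Ccr3* 6.36 against 4.63, the second below background). Of 3 B cell markers above background in BMBs, 0 were 2-fold apart in either pair, with summed signals over the 9 measured of 352 and 316, and of 300 and 279 with IgE. *Cd79a* and *Ms4a1* were below background on all arrays. The part of other cells in the genotype difference of the class II genes was not tested.

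**Figure D3:**
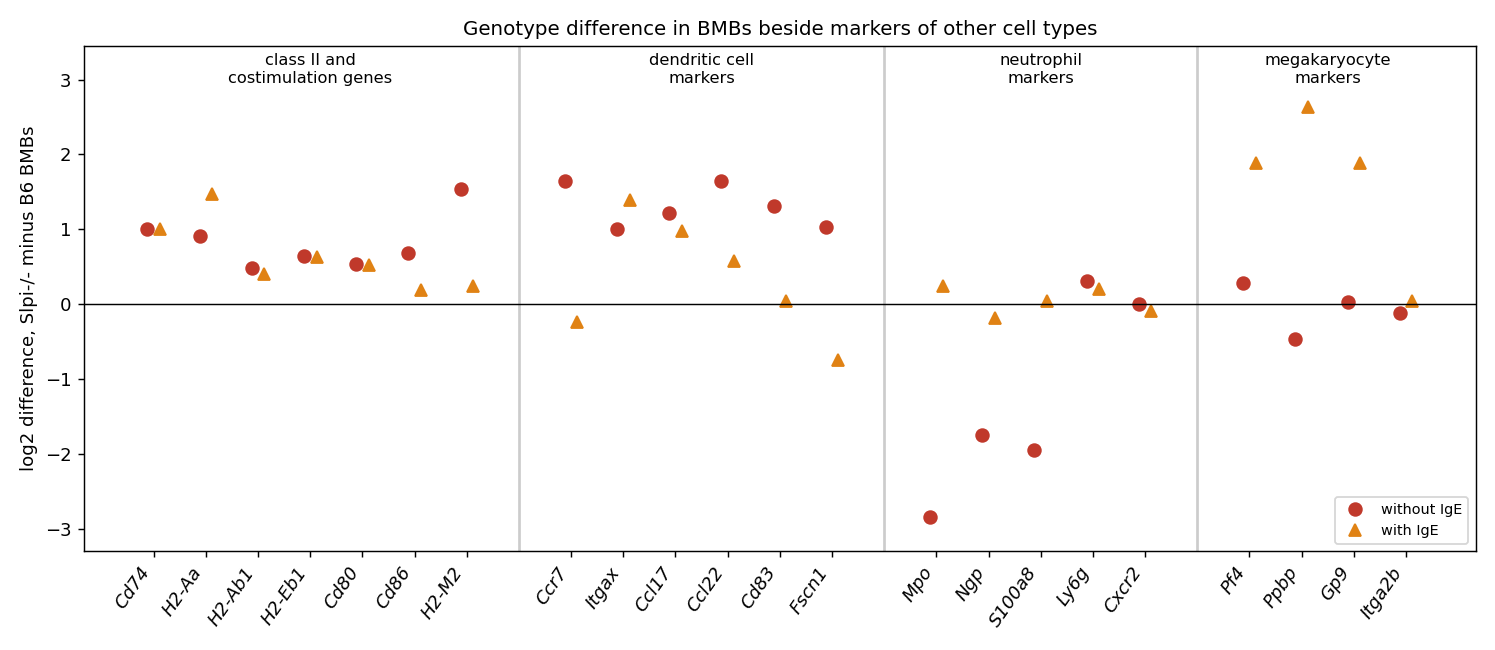
Log2 difference of *Slpi*-/- minus B6 BMBs (vertical axis), without IgE as red circles and with IgE as orange triangles, for 7 of the 10 genes and for markers of dendritic cells, neutrophils and megakaryocytes (horizontal axis). *Cd74*, *H2-Eb1* and *Cd80* show like differences in both pairs, whereas *Ccr7* (1.64 and -0.24), *Mpo* (-2.84 and 0.24) and *Ppbp* (-0.47 and 2.64) are 2-fold apart or more in 1 pair. Not drawn are *H2-DMa*, *Ciita* and *Cd209a*. The markers drawn are a part of each list, and those of dendritic cells include the 5 that were 2-fold higher without IgE. Over the 14 dendritic cell markers above background, the median differences were 0.27 and 0.03, with 6 higher and 2 lower in both pairs.

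In the other cell types, none of the 10 genes was 2-fold apart between the genotypes. In mast cells, 3 of the 10 genes were above background (*H2-Ab1*, *H2-Eb1* and *H2-DMa*), with differences of 0.16, -0.06 and -0.29 and 0 at 2-fold (0.0338% of all genes were 2-fold higher and 0.0844% lower). *Cd74* was below background there, at 5.08 in *Slpi*-/- and 5.21 in B6 mast cells.

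In BMEos, none of the 10 genes passed the test of the genotype difference on the pairs without and with LPS (limma, Benjamini-Hochberg over 13571 genes). Of all genes 0.00737% passed, and 0 of the 10 had an unadjusted limma p under 0.05. The estimates use no BMB array, and so not the contrast that chose the genes. The SE does not share this, as the fit of all 10 arrays draws its spread in part from the BMB arrays. *Cd74* had 6.42 in *Slpi*-/- BMEos and 6.37 in B6 BMEos, and 8.14 and 8.11 with LPS, a difference of 0.04 (SE 0.09, limma adjusted p = 0.998). *H2-Aa* had 6.62 and 5.93 without LPS but 7.59 and 7.56 with it, and its fitted difference of 0.36 (SE 0.19, limma adjusted p = 0.918) rests on the first pair. *H2-Ab1* was alike in this, with 7.22 and 6.67 without LPS, and 7.05 and 7.12 with it. *H2-Aa* ranked 14th and *H2-Ab1* 50th of 11644 genes in the pair without LPS, and 0 of the 7 genes above background there were 2-fold higher or lower, beside 0.0601% and 0.0429% of all genes. With LPS, 0 of the 10 genes were, beside 0.0803% of all genes higher and 0.0722% lower. A genotype difference past 2-fold in 1 cell type and not in another is not shown to differ between them, and with the BMB contrast used to choose the genes that difference was not tested.

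With IgE and antigen, the invariant chain gene, *H2-Aa*, *H2-Eb1* and *Cd80* fell in BMBs, and the gene of the DM editor rose. Across the *Slpi*-/- and the B6 pair, 4 of the 10 genes fell and 1 rose, where 22.8% of all genes changed, 10.6% down and 12.2% up (limma, all 10 arrays in the fit). *H2-Aa* had 7.69 with IgE against 8.35 without in *Slpi*-/- BMBs, and 6.23 against 7.44 in B6 BMBs. It fell by 0.94 (SE 0.19, limma adjusted p = 0.0175), or 1.91-fold, and in both genotypes the signal with IgE was the lower one. *H2-Eb1* had 7.62 against 8.14, and 6.996 against 7.50, and fell by 0.51 (SE 0.10, limma adjusted p = 0.0142). *Cd74* had 9.13 against 9.47, and 8.12 against 8.47, and fell by 0.34 (SE 0.09, limma adjusted p = 0.0393), which did not pass in a fit of the 4 BMB arrays alone (limma adjusted p = 0.0709). The 2 genotypes moved by nearly the same amount for these last 2 genes. This restates that their genotype differences were alike without and with IgE, and is no further result.

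*H2-Ab1* stood apart from the other chain genes: with IgE it had 7.83 against 7.82 without in *Slpi*-/- BMBs and 7.42 against 7.33 in B6 BMBs, a difference of 0.05 (SE 0.15, limma adjusted p = 0.847). *H2-DMa* had 7.63 against 6.75, and 7.52 against 7.08, and rose by 0.66 (SE 0.17, limma adjusted p = 0.0332). *Cd80* had 5.74 against 6.18, and 5.21 against 5.64, and fell by 0.43 (SE 0.11, limma adjusted p = 0.0304), which in B6 BMBs took it below background. *Cd86* had 6.38 against 7.05, and 6.19 against 6.37, and did not pass (-0.43, SE 0.14, limma adjusted p = 0.075). *H2-M2* moved in opposite directions, -0.51 in *Slpi*-/- and 0.78 in B6 BMBs. *Ciita* differed by 0.08 (limma adjusted p = 0.587).

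With IgE, 4 of 14 dendritic cell markers rose and 0 fell, beside 12.2% and 10.6% of all genes. Of 14 macrophage and monocyte markers 1 rose and 2 fell (*Ccr2* by 2.24 and *Mertk* by 0.62), of 7 eosinophil markers 2 fell, and of 11 neutrophil markers 1 fell, with a median of -0.84. Of 5 B cell markers 1 fell (*Fcrla*, by 0.83) and of 6 mast cell markers 1 fell. The part of other cells in these differences was not tested. The calls rest on few arrays. With only the B6 pair for the contrast 1 of the 10 genes passed (*H2-Aa*) and with only the *Slpi*-/- pair 1 (*Cd86*), and without the filter on background 2 did (*H2-Aa* and *H2-Eb1*). *Cd80* did not pass when its 2 probe sets were averaged (limma adjusted p = 0.0734).

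Other genes of the pathway moved both ways with IgE. Of 15 further class II pathway genes tested, 6 fell and 1 rose (median -0.28, against -0.02 over all genes). Of all genes 10.6% fell and 12.2% rose. *H2-Oa* fell by 0.69 (SE 0.12, limma adjusted p = 0.0104), the cathepsin gene *Ctsl* by 1.05 (SE 0.13, limma adjusted p = 0.00364) and *Marchf8*, a ligase that acts on class II, by 0.67 (SE 0.10, limma adjusted p = 0.00636). Of 20 regulators, 7 fell and 1 rose. *Irf1*, an interferon-induced factor that acts on the *Ciita* promoter, fell by 0.56 (limma adjusted p = 0.0112), and *Irf4* was the gene that rose, by 1.02 (limma adjusted p = 0.00484).

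Of 18 costimulation genes, 3 rose and 3 fell. Those that rose were *Tnfsf9*, the ligand of 4-1BB (1.47, SE 0.15, limma adjusted p = 0.00188), *Icosl*, the ligand of ICOS (0.99, SE 0.12, limma adjusted p = 0.00315), and *Pvr*, a ligand of TIGIT and CD226 (0.69, limma adjusted p = 0.00789). *Tnfsf9* had 6.96 with IgE against 5.19 without in *Slpi*-/- BMBs, and 6.67 against 5.49 in B6 BMBs. *Cd80* thus fell in a setting in which 3 of the 18 costimulation genes rose and 3 fell, beside 12.2% and 10.6% of all genes.

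The arrays with and without LPS differed in sex-linked genes, which bears on all that follows on LPS. *Xist*, expressed from the inactive X chromosome, was 9.66 in *Slpi*-/- BMEos with LPS and 9.72 in B6 BMEos with LPS, and at most 4.90 on the other 8 arrays. *Eif2s3y*, a Y-linked gene, was 3.54 and 3.22 with LPS and at least 7.62 elsewhere. LPS and the source of the cells cannot be told apart here.

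*Cd74*, *H2-Aa* and *H2-Eb1* were higher in BMEos with LPS, while *H2-Ab1* and *H2-DMa* did not pass. Of the 10 genes, 6 rose and 0 fell, where 28.9% of all genes changed, 12.7% up and 16.2% down (limma). *Cd74* had 8.14 with LPS against 6.42 without in *Slpi*-/- BMEos, and 8.11 against 6.37 in B6 BMEos. It rose by 1.74 (SE 0.09, limma adjusted p = 8.91e-05), or 3.33-fold, by nearly the same amount in both genotypes. *H2-Aa* had 7.59 against 6.62, and 7.56 against 5.93, and rose by 1.30 (SE 0.19, limma adjusted p = 0.00446). *H2-Eb1* had 7.29 against 6.62, and 7.05 against 6.58, and rose by 0.57 (SE 0.10, limma adjusted p = 0.00799). *H2-Ab1*, at 7.05 against 7.22 and 7.12 against 6.67, did not pass (0.14, SE 0.15, limma adjusted p = 0.527), nor did *H2-DMa*, at 5.82 against 6.23 and 6.22 against 6.07 (-0.13, SE 0.17, limma adjusted p = 0.584).

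The ligand *Cd80* had 10.11 with LPS against 8.74 without in *Slpi*-/- BMEos, and 10.09 against 9.001 in B6 BMEos, and rose by 1.23 (SE 0.11, limma adjusted p = 0.000569). *Cd86* had 6.81 against 7.31, and 6.70 against 6.97, and did not pass (-0.39, SE 0.14, limma adjusted p = 0.083). *Ciita* had 5.88 against 5.52, and 5.86 against 5.43, and rose by 0.40 (SE 0.09, limma adjusted p = 0.0222), with a step across the background line in both genotypes. *H2-M2* had 6.25 against 4.77, and 5.97 against 5.26, and rose by 1.09 (SE 0.31, limma adjusted p = 0.041), with both signals without LPS below background. It did not pass without the *Slpi*-/- pair (0.71, limma adjusted p = 0.281) or without the B6 pair (1.48, limma adjusted p = 0.0552). Without the *Slpi*-/- pair *Ciita* (limma adjusted p = 0.126) and *H2-Eb1* (limma adjusted p = 0.102) did not pass either, while *Cd209a* did (0.67, limma adjusted p = 0.0496). *Ciita* did not pass without the B6 pair (limma adjusted p = 0.178). Of 14 macrophage and monocyte markers, 6 rose and 0 fell with LPS, with summed signals of 8875 with LPS and 6509 without in *Slpi*-/- BMEos, and of 9048 and 6132 in B6 BMEos. Of 14 dendritic cell markers 4 rose and 2 fell, and of 5 plasmacytoid dendritic cell markers 4 rose (median 0.82), with summed signals of 811 with LPS and 414 without in *Slpi*-/- BMEos, and of 701 and 415 in B6 BMEos. The part of other cells in the rise of the class II genes was not tested.

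**Figure D4:**
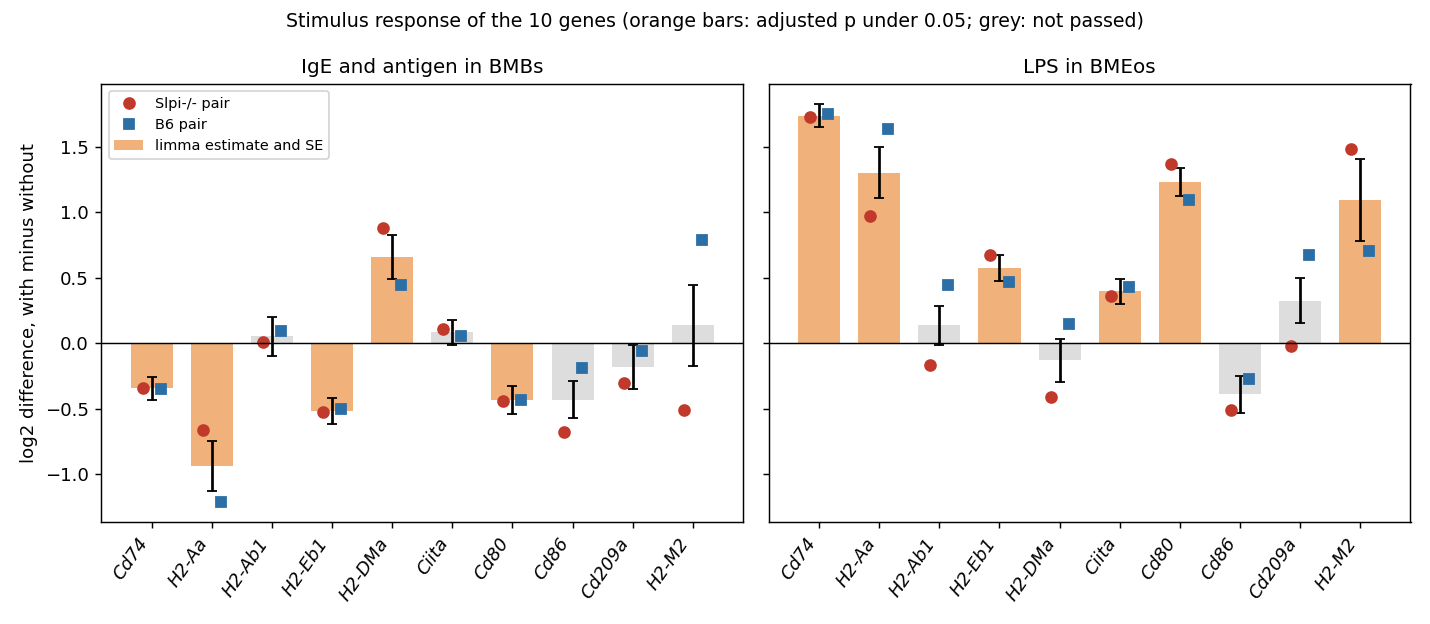
Log2 difference with minus without the stimulus (vertical axis) for the 10 genes (horizontal axis), IgE and antigen in BMBs on the left and LPS in BMEos on the right; bars are limma estimates with their SE, red circles the *Slpi*-/- pair and blue squares the B6 pair. *Cd74*, *H2-Aa*, *H2-Eb1* and *Cd80* have negative bars with IgE (-0.94 to -0.34) and positive bars with LPS (0.57 to 1.74).

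With LPS, 12.7% of all genes rose and 16.2% fell, which is the share beside the counts given here. Among the other genes of the pathway, 4 of 15 rose and 3 fell with LPS. *Ctss* had 7.19 with LPS against 5.88 without in *Slpi*-/- BMEos, and 7.20 against 5.93 in B6 BMEos, and rose by 1.29 (SE 0.10, limma adjusted p = 0.000444). *Lgmn*, the asparaginyl endopeptidase of endosomes, fell by 0.88 (limma adjusted p = 0.00325) and *Marchf8* by 0.69 (limma adjusted p = 0.00454). Of 20 regulators, 5 rose and 2 fell. *Rfx5*, a subunit of the factor that binds the X box, rose by 1.13 (SE 0.09, limma adjusted p = 0.000513) and *Irf1* by 1.15 (SE 0.10, limma adjusted p = 0.000606). Of 18 costimulation genes, 5 rose and 3 fell, with *Icam1*, an adhesion ligand of LFA-1, up by 2.70 (limma adjusted p = 4.24e-05) and *Cd40* by 0.64 (limma adjusted p = 0.00439). Of 12 lectin genes, 5 rose, with *Clec4e*, the receptor Mincle, up by 4.05 (limma adjusted p = 1.27e-05), and of the class Ib genes *H2-T24* rose by 2.22 (limma adjusted p = 8.91e-05).

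The cell types differed more than any genotype or stimulus did for several of these genes. Unstimulated BMBs were compared with mast cells over 6 arrays, with the genotypes as the 2 samples of a cell type, and the 3 comparisons of cell types share arrays. Of the 9 genes tested, 6 were higher in BMBs and 0 lower, where 36.7% of all genes differed, 18.8% higher and 17.9% lower. *Cd74* had 9.47 and 8.47 in BMBs (*Slpi*-/- and B6) and 5.08 and 5.21 in mast cells, which is 3.83 higher (SE 0.25, limma adjusted p = 4.1e-05), or 14.2-fold. *H2-Aa* was 3.06 higher (SE 0.16, limma adjusted p = 1.56e-05), *Cd86* 2.37 (SE 0.33, limma adjusted p = 0.00148), *H2-Ab1* 1.73 (SE 0.12, limma adjusted p = 6.13e-05), *H2-Eb1* 1.18 (SE 0.17, limma adjusted p = 0.00196) and *Cd80* 0.97 (SE 0.18, limma adjusted p = 0.00588). As *Cd74*, *H2-Aa*, *Cd80* and *Cd86* were below background in both mast cell arrays, their true differences can be larger than these. The BMB mean includes the *Slpi*-/- array, and the genes were chosen for being higher there than on the B6 array. Between the B6 arrays alone, the difference was 3.26 for *Cd74*, 2.73 for *H2-Aa* and 1.60 for *Cd86*. It was 1.56 for *H2-Ab1*, 0.83 for *H2-Eb1* and 0.72 for *Cd80*.

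*H2-DMa* had 6.75 and 7.08 in BMBs against 6.57 and 6.86 in mast cells and did not pass (0.20, limma adjusted p = 0.316). *H2-Eb1*, at 6.61 and 6.67 in mast cells, was above the 95th percentile background there and under the 99th. *H2-M2* did not pass (1.09, SE 0.42, limma adjusted p = 0.0878), as its 2 BMB signals were far apart. It was 2.004 higher without the B6 BMBs array (limma adjusted p = 0.000177), a setting that keeps only the array on which the gene was high, and it passed without either BMEos array (limma adjusted p = 0.0425), which leaves the difference as it is.

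BMEos had 5 of the 9 genes higher than mast cells and 1 lower, where 51.1% of all genes differed, 24.3% higher and 26.8% lower. *Cd80* had 8.74 and 9.001 in BMEos and 4.95 and 4.92 in mast cells, a difference of 3.93 (SE 0.18, limma adjusted p = 4.78e-06), or 15.3-fold. *Cd86* was 2.80 higher (SE 0.33, limma adjusted p = 0.000409), *H2-Aa* 1.44 (limma adjusted p = 0.000311), *Cd74* 1.25 (limma adjusted p = 0.00532) and *H2-Ab1* 1.10 (limma adjusted p = 0.000325). *H2-DMa* was the gene that was lower, by 0.57 (SE 0.14, limma adjusted p = 0.0126), and it did not pass without the B6 BMEos array (limma adjusted p = 0.118) or the B6 mast cell array (limma adjusted p = 0.0797).

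Between BMBs and BMEos the presenting genes and the ligand went opposite ways. Of the 9 genes, 5 were higher in BMBs and 1 lower, where 39.7% of all genes differed, 21.2% higher and 18.6% lower. *Cd74* was 2.58 higher in BMBs (SE 0.25, limma adjusted p = 0.000275), *H2-Aa* 1.62 (SE 0.16, limma adjusted p = 0.000289), *H2-Eb1* 1.23 (SE 0.17, limma adjusted p = 0.00157), *H2-DMa* 0.77 (SE 0.14, limma adjusted p = 0.00464) and *H2-Ab1* 0.63 (SE 0.12, limma adjusted p = 0.00649). *Cd80* was lower in BMBs, with 6.18 and 5.64 against 8.74 and 9.001 in BMEos, a difference of -2.96 (SE 0.18, limma adjusted p = 3.5e-05). Here too the BMB mean includes the *Slpi*-/- array. Between the B6 arrays alone, the difference was 2.11 for *Cd74*, 1.51 for *H2-Aa* and 0.92 for *H2-Eb1*. It was 1.01 for *H2-DMa*, 0.66 for *H2-Ab1* and -3.36 for *Cd80*. *Cd86*, with 7.05 and 6.37 against 7.31 and 6.97, did not pass (-0.43, SE 0.33, limma adjusted p = 0.356). It did pass when either mast cell array was left out (limma adjusted p = 0.0266), which leaves the difference as it is. Without the B6 BMEos array *H2-Ab1* did not pass (limma adjusted p = 0.0652).

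**Figure D5:**
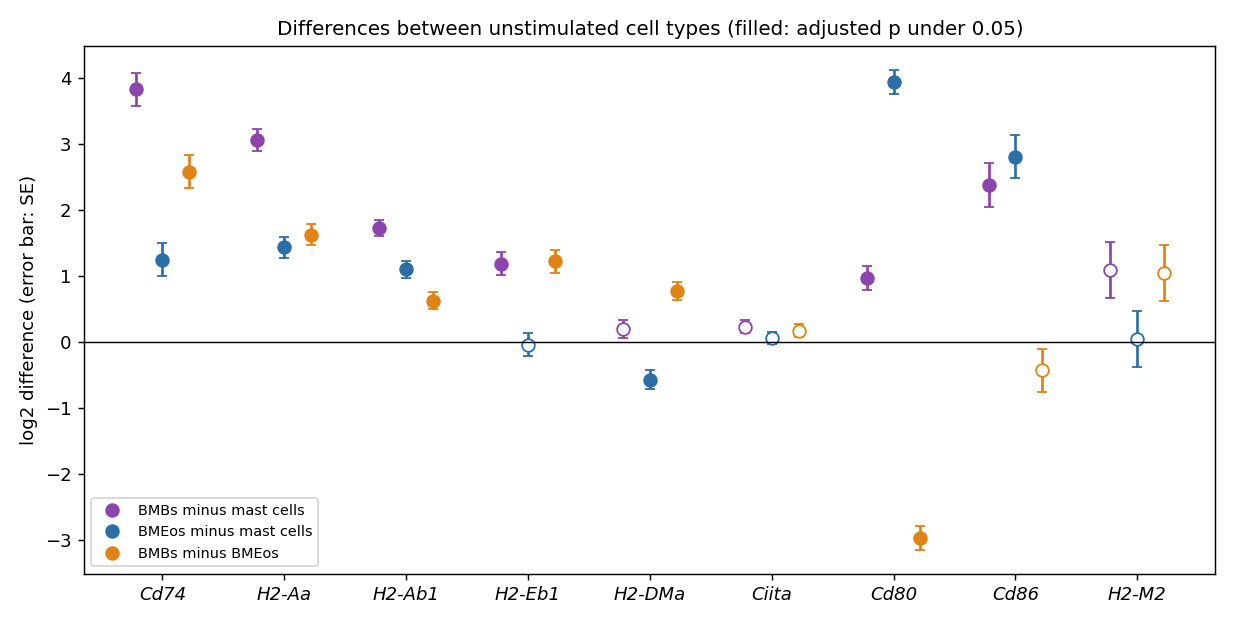
Log2 difference between unstimulated cell types with its SE (vertical axis) for the 9 genes tested (horizontal axis), with filled circles where the limma adjusted p was under 0.05. *Cd74* and *H2-Aa* are highest in BMBs, and *Cd80* lies at 3.93 for BMEos minus mast cells and at -2.96 for BMBs minus BMEos.

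For *Cd74*, the order of the 5 settings was BMBs, BMBs with IgE, BMEos with LPS, BMEos, and mast cells in *Slpi*-/- cells, and the same in B6 cells save that BMBs with IgE (8.12) and BMEos with LPS (8.11) were level there. *H2-Aa* in *Slpi*-/- cells followed the same order, with BMBs with IgE (7.69) and BMEos with LPS (7.59) again close, while in B6 cells BMEos with LPS (7.56) stood above BMBs (7.44). *Cd80* had BMEos with LPS first, BMEos next and the BMB and mast cell arrays far below in both genotypes.

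Further class II pathway genes separated the cell types in the same comparisons. In BMBs against mast cells, 8 of 15 were higher and 1 lower, beside 18.8% and 17.9% of all genes. *Ctsl* was 3.99 higher (limma adjusted p = 7.04e-06), *Ctss* 2.83 (limma adjusted p = 1.05e-05), *Lgmn* 2.38 (limma adjusted p = 1.17e-05) and *Ifi30*, the thiol reductase of antigen processing, 2.26 (limma adjusted p = 1.02e-05). In BMBs against BMEos, 11 of 15 were higher and 1 lower, beside 21.2% and 18.6% of all genes. The lower one was *Marchf1*, by 2.29 (SE 0.12, limma adjusted p = 1.69e-05). Among the regulators, *Ifngr2*, a chain of the interferon-γ receptor, had 10.56 and 10.61 in BMBs and 10.32 and 10.23 in BMEos against 5.28 and 5.57 in mast cells. Of 13 dendritic cell markers 9 and of 11 macrophage and monocyte markers 8 were also higher in BMBs than in mast cells, while 2 macrophage and monocyte markers were lower (*Cx3cr1* by 4.81 and *F13a1* by 3.46). Their part in the class II difference was not tested.

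Over the 10 arrays, the genes whose signals ran most like those of the class II genes were found by Pearson correlation among 5313 genes that were above background somewhere and spanned at least 1 log2 unit. The arrays fall into 3 cell types, so the values mainly follow the order of the cell types, and they are given with no test. *Cd74* ran closest to *Ctss* (r = 0.99), followed by *Gpnmb*, *Hivep1*, *Morrbid* and *Met* (0.98 to 0.96). *Ctss* had 8.21 and 7.77 in BMBs, 5.20 and 5.12 in mast cells and 5.88 and 5.93 in BMEos. *H2-Ab1* ran closest to the lysozyme gene *Lyz2* (r = 0.98), then *Anxa3*, *Mapkapk3*, *Cd226* and *Itga2*. *H2-Eb1* ran closest to *Lgalsl* (r = 0.95), then *Myof*, *Arg1*, *App* and *Fn1*, and *H2-Aa* to *Axl* and *Scpep1* (both 0.96), then *Clec1b*, *Treml2* and *Arrdc4*.

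*Lgalsl*, a galectin-like gene, had 10.17 in *Slpi*-/- BMBs and 9.07 in B6 BMBs, and 8.76 and 7.74 with IgE. Both its genotype difference and its change with IgE had the direction of those of *H2-Eb1*. As *Lgalsl* was found by its likeness to *H2-Eb1* over these same arrays, this is no further result. *Lyz2*, by contrast, had 10.65 and 10.43, and 10.82 and 10.07 with IgE. The members themselves were unequally alike: the correlation of *Cd74* with *H2-Aa* was 0.93, with *H2-Ab1* 0.92 and with *H2-Eb1* 0.89, whereas it was 0.32 with *H2-DMa* and 0.11 with *Cd80*.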

How the data were processed

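Total RNA was labelled and hybridised by the authors to Affymetrix Mouse Gene arrays, 1 per condition. They summarized the probe signals with RMA in the Bioconductor package affy and deposited log2 signals, which were used with no further normalization; the number of arrays limits the precision. Of 34760 probe sets, 21640 carried 1 gene symbol in the platform annotation, 1321 several and 11799 none; 21553 were matched by gene ID to RefSeq. A gene with several probe sets was read from the one with the highest mean signal, which of the 10 genes concerned *Cd80*. Probe sets with several symbols or none were left out.

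The genotype differences in BMBs and in mast cells were not tested, since the first chose the genes and the second has 1 array a genotype. Other contrasts were fitted with limma 3.58.1 in R 4.3.3 (lmFit, eBayes, Benjamini-Hochberg, threshold 0.05), with the genotypes as the samples, so p-values measure the spread between these arrays. The IgE, LPS and BMEos genotype contrasts came from 1 fit of all 10 arrays whose design held the 6 combinations of cell type and genotype plus IgE and LPS terms (13571 genes above background on at least 1 array, 2 residual degrees of freedom, prior 4.48). Cell types were compared over the 6 unstimulated arrays with a genotype term (12998 genes, 2 residual degrees of freedom, prior 4.75). The fits were tested on simulated data of 200 changed genes: at a log2 change of 1, 89% to 97% were recovered. Between 6 and 15 calls per contrast were false, the most for BMBs against mast cells (15 of 208). The simulated spread was limma's own, so this checks the code and cannot show how reliable calls from 1 array per condition are.

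The genes and the lists set beside them were chosen with earlier results of these data known. From the lists, the text names up to 5 genes with the largest mean genotype difference in BMBs, up to 4 with the smallest adjusted p per contrast, and up to 3 markers a list by signal and by difference; *Mgl2*, *Fscn1*, *Mmp8*, *Mertk*, *Cx3cr1*, *Flt3*, *Zbtb46*, *Xcr1*, *Cd79a* and *Ms4a1* were named after their values were seen. Alternatives were averaging of probe sets, median centring, quantile normalization, no filter, a 99th percentile background, a variance trend, the methods' t-test on pairs, leaving out each pair or array, a fit of 4 arrays alone, no genotype term, and 1.5-fold as the limit. Python 3.11.15, numpy 2.4.6, pandas 2.3.3 and matplotlib 3.10.9 were used for tables and figures.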

Additional observations from a re-analysis of the deposited data

Results flagged for a closer look

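In 4 cases the array pairs of the 2 genotypes moved in opposite directions with the stimulus. Each genotype has 1 pair, so the difference was not tested. *H2-M2* changed with IgE by -0.51 in *Slpi*-/- BMBs and by 0.78 in B6 BMBs, a difference of -1.29. *H2-Ab1* changed with LPS by -0.17 in *Slpi*-/- BMEos and by 0.44 in B6 BMEos, a difference of -0.61. *H2-DMa* changed with LPS by -0.41 in *Slpi*-/- BMEos and by 0.15 in B6 BMEos, a difference of -0.55. *Cd209a* changed with LPS by -0.02 in *Slpi*-/- BMEos and by 0.67 in B6 BMEos, a difference of -0.69, at signals that passed background only in B6 BMEos with LPS.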

How the results depend on the processing

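The IgE response was the least steady result. The 10 genes held 5 past the threshold, against 2 without the background filter (*H2-Aa*, *H2-Eb1*), 1 without the genotype term (*H2-DMa*), and 1 to 1 when the *Slpi*-/- or the B6 pair was left out (*H2-Aa* and *Cd86*). The methods' t-test, run on pairs and adjusted, called 0 of the 10 genes for IgE (5 with limma), for LPS (6) and for each pair of cell types (6 each); at an unadjusted p under 0.05 it called 3 for IgE, 1 for LPS, 1 for BMBs against mast cells and 2 for each of the other cell type pairs. Of all genes it called 0 or 1 after adjustment. *H2-M2* under LPS lost its call with quantile normalization (limma adjusted p = 0.0542), without the filter (0.0597) and without the genotype term (0.0583, where *H2-Eb1* did too, 0.0842), and *Cd86* under LPS gained one with median centring (0.0409) and in the 4 BMEos arrays alone (0.0436). *H2-M2* passed for BMBs against mast cells and against BMEos when all 10 arrays were fitted (0.0347 and 0.0373), and against BMEos without the B6 BMBs array (1.96, 0.000205) or the B6 BMEos array (1.66, 0.0311). Genes at least 2-fold higher in *Slpi*-/- BMBs without IgE numbered 1, 2 with quantile normalization and 5 at 1.5-fold. The median in mast cells was -0.06, and -0.29 with the 99th percentile background, which leaves 1 gene. All genes past the threshold with IgE numbered 3091, and 1103 without the *Slpi*-/- pair; with LPS they numbered 3926, and 1537 and 1577 without a pair; for BMBs against BMEos 5165, and 3424 without the *Slpi*-/- BMEos array; and for the genotype in BMEos 1, against 6 with a variance trend and 0 with quantile normalization, no filter, the 4 BMEos arrays alone or either pair left out.

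Directions turned for small differences. *Cd80* in *Slpi*-/- against B6 BMEos was 0.0058 with the mean of its probe sets (-0.13 as reported), and *H2-Eb1* in BMEos against mast cells was 0.0045 with centring and 0.012 with quantile normalization (-0.04). When a pair or array was left out, the IgE difference ranged from -0.51 to 0.78 for *H2-M2*. The LPS difference ranged from -0.41 to 0.15 for *H2-DMa*, from -0.17 to 0.44 for *H2-Ab1* and from -0.0204 to 0.67 for *Cd209a*. The genotype difference in BMEos ranged from -0.063 to 0.55 for *H2-Ab1*, from -0.26 to 0.0114 for *Cd80*, from -0.49 to 0.28 for *H2-M2*, from -0.40 to 0.15 for *H2-DMa* and from -0.49 to 0.20 for *Cd209a*. Between cell types it ranged from -0.25 to 0.16 for *H2-Eb1* and from -0.57 to 0.65 for *H2-M2* in BMEos against mast cells, and from -0.90 to 0.0419 for *Cd86* in BMBs against BMEos. The mean difference of *H2-DMa* over the BMB pairs (-0.11) ranged from -0.32 to 0.11. The cause was not tested. The labels give no replicate numbers; the genotypes served as pairs.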
